A study of Homo sapiens with 2 samples.

Results

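The kynurenine pathway breaks down tryptophan, and 6 genes for its enzymes were followed in MDA-MB-453 cells, an established human breast cancer line that the labels call triple-negative. The genes were TDO2, KMO, KYNU, AFMID, QPRT and KYAT3, taken by name from a count matrix of 16251 genes. Wild-type cells were grown as 1 culture with IL1β and TNFα, cytokines that activate NF-κB, at 10 ng/ml for 24 hours, and as 1 culture with water as vehicle for the same time. RNA of single cells was counted at the 3′ ends of transcripts by unique molecular identifiers (UMIs), so that each count stands for 1 captured molecule whatever the length of the transcript. With 1 library per condition no test was possible, the treatment and the library cannot be told apart, and every interval below covers counting error only.

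The cytokine-treated library held 3163 cells and 69592446 UMIs, and the vehicle library held 2822 cells and 58587996 UMIs, with a median of 21508 UMIs per cytokine-treated cell and 20249 UMIs per vehicle cell. By the deposited phase calls 88.5% of cytokine-treated cells and 36.6% of vehicle cells were in G1. Only 8 cell barcodes occurred in both libraries. All 9 luminal epithelial markers looked at were measured in these libraries, among them KRT19 at 1825 counts per 1000000 UMIs (CPM) in cytokine-treated cells and 741 CPM in vehicle cells. ERBB2, the HER2 receptor gene, was at 208 CPM in cytokine-treated cells and 129 CPM in vehicle cells.

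Tryptophan enters the pathway through a dioxygenase, TDO2 in liver and brain and IDO1 in many other tissues, which opens its indole ring to formylkynurenine. AFMID removes the formyl group and leaves kynurenine, KMO hydroxylates kynurenine, and KYNU cleaves the hydroxylated product on the way to quinolinate. QPRT turns quinolinate into a precursor of NAD, while KYAT3 leads kynurenine off the main route to kynurenic acid. Kynurenine that leaves the cell is a known ligand of the aryl hydrocarbon receptor.

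The stretches before the transcription start sites of TDO2, KMO and KYNU are shown because these genes were higher together after cytokine treatment, and the stretch before AFMID because it is shared with a cell cycle gene. Sequences are from RefSeq on GRCh38.p14, plus strand, with matches to the TATAAA box, to the CCAAT box and to GGGCGG on either strand in capitals. The 250 bases before TDO2 are chr4:155903446-155903695, those before KMO chr1:241532128-241532377 and those before KYNU chr2:142877414-142877663. The 157 bases before AFMID, chr17:78187205-78187361, are the whole gap to the start of TK1, which runs the other way.
TDO2: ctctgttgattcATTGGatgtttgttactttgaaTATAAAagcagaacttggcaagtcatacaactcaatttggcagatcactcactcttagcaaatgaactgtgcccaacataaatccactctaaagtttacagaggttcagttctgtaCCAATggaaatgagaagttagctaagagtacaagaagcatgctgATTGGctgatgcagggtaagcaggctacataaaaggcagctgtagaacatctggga
KMO: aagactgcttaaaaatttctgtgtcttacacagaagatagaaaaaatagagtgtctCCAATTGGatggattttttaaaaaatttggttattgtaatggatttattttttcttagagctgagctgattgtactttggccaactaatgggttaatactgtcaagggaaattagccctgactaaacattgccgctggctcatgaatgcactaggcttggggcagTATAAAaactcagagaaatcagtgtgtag
KYNU: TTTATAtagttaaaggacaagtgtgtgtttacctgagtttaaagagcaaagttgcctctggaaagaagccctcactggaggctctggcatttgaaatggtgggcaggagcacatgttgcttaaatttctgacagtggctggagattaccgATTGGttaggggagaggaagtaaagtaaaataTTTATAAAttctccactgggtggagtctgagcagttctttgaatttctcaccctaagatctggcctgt
AFMID: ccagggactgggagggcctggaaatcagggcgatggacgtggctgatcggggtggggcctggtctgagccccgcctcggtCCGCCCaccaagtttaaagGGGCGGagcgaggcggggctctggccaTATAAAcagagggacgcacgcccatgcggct

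The promoters of the 3 enzymes that were higher were poor in G and C. Over windows of 250 bases before and 50 bases after the start site, 41.3% of bases were G or C for TDO2, 36.7% for KMO and 42.3% for KYNU, against 67.7% for AFMID, 67.3% for KYAT3 and 64.0% and 56.7% for the 2 QPRT windows. The median over 34796 promoter windows of the same length was 58.7%. GGGCGG, the core of the GC box, had no match in the windows of TDO2, KMO, KYNU or QPRT, matched 3 times in AFMID and 5 times in KYAT3, and occurred in 44.9% of all windows. TATAAA was found 29 bases before the KMO start, 31 bases before the AFMID start, 216 bases before the TDO2 start and at 3 places in KYNU, and occurred in 11.6% of all windows. The NF-κB consensus, present in 11.3% of all windows, had no match in any window of the 6 genes, which says only that these letters are not there.

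TDO2, the enzyme that opens the pathway, was at 563 CPM in cytokine-treated cells (interval 557 to 568) and at 9.30 CPM in vehicle cells (8.54 to 10.1), a log2 ratio of 5.92 (5.80 to 6.04). KMO was at 243 CPM in cytokine-treated cells (239 to 247) and at 9.32 CPM in vehicle cells (8.55 to 10.1), a log2 ratio of 4.70 (4.58 to 4.83). KYNU was at 69.9 CPM in cytokine-treated cells (68.0 to 71.9) and at 4.08 CPM in vehicle cells (3.58 to 4.63), a log2 ratio of 4.10 (3.91 to 4.29). The enzyme that opens the pathway and those that hydroxylate and cleave its products were thus higher in the cytokine-treated library, and the other 3 stayed within 2-fold. AFMID, which supplies kynurenine, was at 5.29 CPM in cytokine-treated cells (4.76 to 5.86) and 8.47 CPM in vehicle cells (7.74 to 9.24), a log2 ratio of -0.68 (-0.88 to -0.48). QPRT was at 28.8 CPM in cytokine-treated cells (27.5 to 30.1) and 21.1 CPM in vehicle cells (19.9 to 22.3), a log2 ratio of 0.45 (0.35 to 0.55). KYAT3 was at 8.65 CPM in cytokine-treated cells (7.97 to 9.37) and 6.66 CPM in vehicle cells (6.01 to 7.35), a log2 ratio of 0.38 (0.19 to 0.57).

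Genes that reached 5 CPM in either library were taken as measured, and a difference of at least 2-fold with its interval on the same side was called. By this rule 3 of the 6 enzymes were higher after cytokine treatment and 0 were lower, beside 4.29% of 9192 measured genes that were higher and 7.48% that were lower. KYNU reached 5 CPM in cytokine-treated cells alone, so it could not have been called lower. By log2 ratio TDO2 stood at place 27, KMO at place 35 and KYNU at place 44 of the measured genes, counted from the highest. Over all measured genes the median log2 ratio was -0.20, so AFMID lay below that median and QPRT and KYAT3 above it. The split of called genes moved with the scaling, from 394 higher and 688 lower by library totals to 526 higher and 499 lower by TMM factors and 539 higher and 491 lower by median-of-ratios size factors.

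The order of the enzymes differed between the libraries. In cytokine-treated cells the order by CPM was TDO2, KMO, KYNU, QPRT, KYAT3 and AFMID, and no interval overlapped that of its neighbour. In vehicle cells QPRT was highest, followed by KMO, TDO2 and AFMID, whose intervals overlapped, and then by KYAT3 and KYNU. Summed over the 6 genes the level was 918 CPM in cytokine-treated cells and 58.9 CPM in vehicle cells. TDO2, KMO and KYNU supplied 95.3% of that sum in cytokine-treated cells and 38.5% in vehicle cells.

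**Figure D1:**
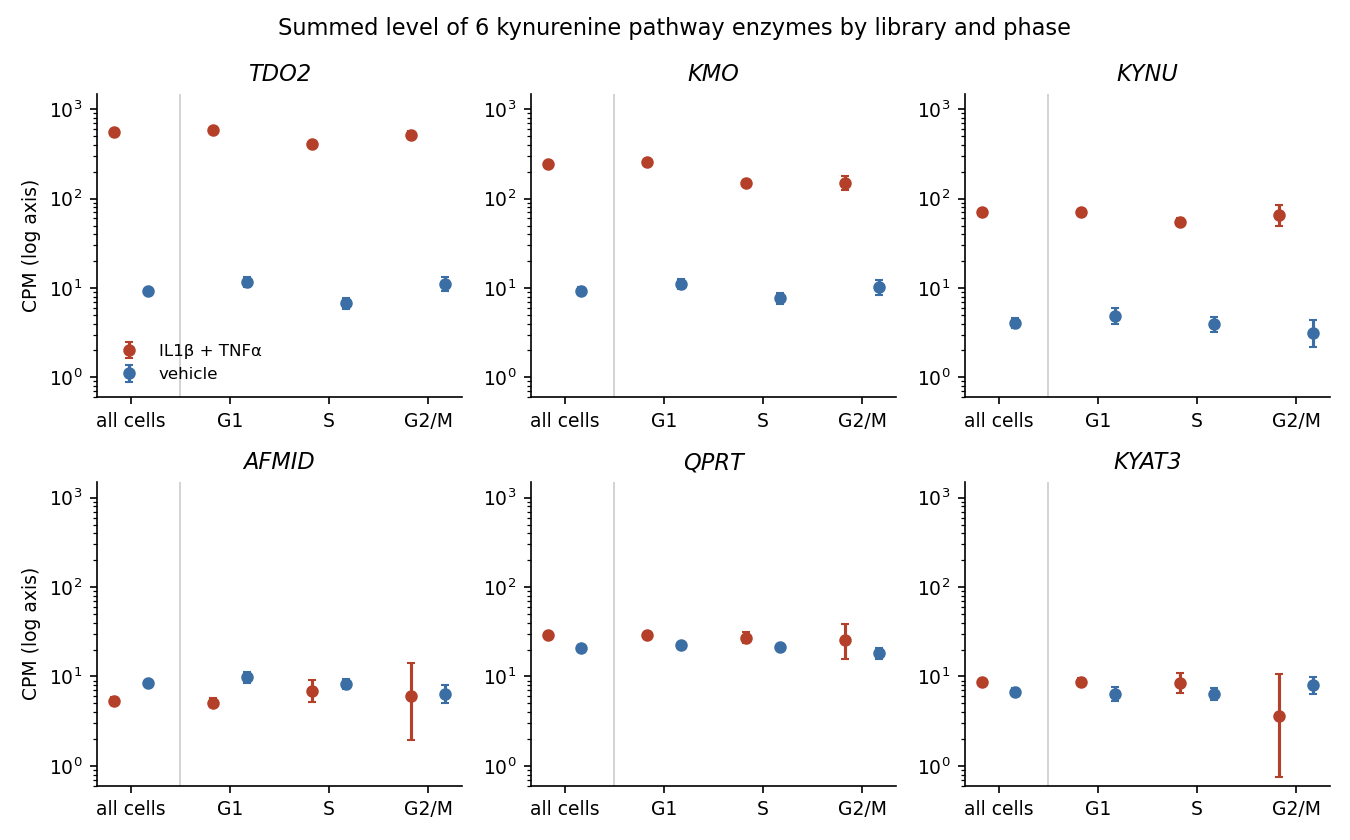
Level of each enzyme in CPM (log axis) for all cells and for cells called G1, S or G2/M, in the IL1β + TNFα library (red, left) and the vehicle library (blue, right), with exact Poisson 95% intervals. TDO2, KMO and KYNU are at least 14.1-fold higher in IL1β + TNFα cells in each phase, while AFMID, QPRT and KYAT3 lie close together.

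Because the libraries differed in cell cycle, the enzymes were also read within each phase. TDO2 was at 582 CPM in G1, 403 CPM in S and 521 CPM in G2/M among cytokine-treated cells, and at 11.8, 6.73 and 11.2 CPM in the same phases among vehicle cells. Its log2 ratio was 5.63 in G1 (5.44 to 5.82), 5.91 in S (5.69 to 6.13) and 5.54 in G2/M (5.25 to 5.84), close to that over all cells. KMO had within-phase log2 ratios of 4.52, 4.30 and 3.87, and KYNU of 3.89, 3.82 and 4.38, in G1, S and G2/M. Both dioxygenase and hydroxylase levels were lower in S than in G1 in each library, with log2 ratios of S over G1 of -0.53 for TDO2 (-0.58 to -0.47) and -0.75 for KMO (-0.84 to -0.66) in cytokine-treated cells, and of -0.81 (-1.09 to -0.52) and -0.53 (-0.81 to -0.25) in vehicle cells. The G2/M values of the cytokine-treated library rest on 40 cells.

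AFMID stood further apart between the libraries in G1 than over all cells. Its level in G1 was 5.09 CPM in cytokine-treated cells and 9.87 CPM in vehicle cells, a log2 ratio of -0.96 (-1.22 to -0.69), which was still under 2-fold. In S phase AFMID was at 6.93 CPM in cytokine-treated cells and 8.27 CPM in vehicle cells, with an interval of the log2 ratio that included 0 (-0.73 to 0.19). QPRT had log2 ratios between 0.35 and 0.47 in the 3 phases. KYAT3 was at 0.46 in G1 (0.18 to 0.76) and 0.41 in S (-0.04 to 0.84) on the same scale, and only 3 of its UMIs came from cytokine-treated cells in G2/M.

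AFMID lies head to head with TK1, the thymidine kinase that is made for DNA synthesis, with 157 bases between their starts. TK1 was at 19.3 CPM in cytokine-treated cells and 134 CPM in vehicle cells, a log2 ratio of -2.79, and BIRC5, the mitotic gene 6.55 kb beyond AFMID, was at 10.3 CPM in cytokine-treated cells and 90.5 CPM in vehicle cells, a log2 ratio of -3.14. Both neighbours were called lower, while AFMID between them was not. TK1 also followed the phase calls, at 6.90 CPM in G1 and 110 CPM in S among cytokine-treated cells and 62.7 CPM in G1 and 172 CPM in S among vehicle cells. Its log2 ratios of S over G1 were 3.99 in cytokine-treated cells and 1.45 in vehicle cells. For AFMID they were 0.45 (-0.01 to 0.88) and -0.26 (-0.54 to 0.03), with intervals that included 0. Across cells the Pearson correlation of AFMID and TK1 was 0.04 in 3163 cytokine-treated cells and -0.04 in 2822 vehicle cells, which at these low counts is no finding.

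Near TDO2 (chromosome 4, 155903696 to 155920406 on GRCh38.p14, plus strand), the cathepsin gene CTSO on the minus strand ends 3.71 kb beyond the end of TDO2 and was also called higher, at 9.66 CPM in cytokine-treated cells and 3.09 CPM in vehicle cells, a log2 ratio of 1.64. CTSO reached 5 CPM in cytokine-treated cells alone, so it could not have been called lower. GUCY1B1, 95.9 kb on the other side of TDO2, had a log2 ratio of -0.75. KMO (chromosome 1, 241532378 to 241595642, plus strand) overlaps the end of OPN3, an opsin gene on the minus strand, and whether the counting used strand was not given in the sources used here. OPN3 was at 23.9 CPM in cytokine-treated cells and 12.2 CPM in vehicle cells, with 1662 UMIs in the cytokine-treated library beside 16900 UMIs of KMO, and its correlation with KMO across cytokine-treated cells was -0.04. FH, 12.6 kb before KMO, had a log2 ratio of 0.54. The nearest counted genes of KYNU (chromosome 2, 142877664 to 143055833, plus strand) lay 747 and 882 kb away and were not measured, and those of QPRT (chromosome 16, 29679008 to 29698699, plus strand) were not measured either. KYAT3 (chromosome 1, 88921044 to 88992960, minus strand) holds RBMXL1 on the same strand, so its counts are uncertain. RBMXL1 was at 9.74 CPM in cytokine-treated cells and 12.2 CPM in vehicle cells.

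Other steps of the pathway could be read in part only. Of 11 genes listed for them, 4 were measured, of which 0 were called higher and 1 was called lower, beside 4.29% and 7.48% of all measured genes, so these counts are no result about the list. All 4 had log2 ratios below 0, with a median of -0.49 beside -0.20 over all measured genes. DHTKD1, a dehydrogenase of the late lysine and tryptophan breakdown, was the gene called lower, at 12.8 CPM in cytokine-treated cells and 30.1 CPM in vehicle cells. GOT2, a mitochondrial aminotransferase that can also act on kynurenine, was at 58.8 CPM in cytokine-treated cells and 81.4 CPM in vehicle cells, a log2 ratio of -0.47. IDO1 had 4 UMIs in all cytokine-treated cells and 7 UMIs in all vehicle cells, too few at this depth to detect a difference. KYAT1, the cytosolic counterpart of KYAT3, had 54 UMIs in the cytokine-treated library and 52 UMIs in the vehicle library.

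Supply and use of tryptophan and the cofactors were looked at through lists chosen with earlier results of these data known. Over all measured genes 4.29% were called higher and 7.48% lower, so the counts of calls in these lists are no result about them. For tryptophan uptake and its other uses, 6 genes were measured, 0 higher and 1 lower. The gene called lower was SLC7A5, which carries large neutral amino acids into the cell. It was at 3.43 CPM in cytokine-treated cells and 12.0 CPM in vehicle cells, a log2 ratio of -1.81. SLC7A5 reached 5 CPM in vehicle cells alone, so it could not have been called higher. Its partner SLC3A2 was at 44.8 CPM in cytokine-treated cells and 44.1 CPM in vehicle cells. Of 6 measured genes of NAD synthesis, NAD salvage or NAD phosphorylation, none was called in either direction. The most abundant, NAPRT, was at 32.7 CPM in cytokine-treated cells and 33.9 CPM in vehicle cells. Heme serves TDO2, flavin serves KMO, and pyridoxal phosphate serves KYNU and KYAT3. None of 13 measured genes for these cofactors was called, and their median log2 ratio was 0.04 beside -0.20 over all measured genes. PDXK, the pyridoxal kinase, was the most abundant of them at 127 CPM in cytokine-treated cells and 89.3 CPM in vehicle cells.

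TDO2 is a gene of hepatocytes, and other amino acid breakdown enzymes of liver were therefore read beside it. Of 12 listed, 6 were in the matrix used here and 3 were measured. Of these 3, 2 were called higher and 0 lower, beside 4.29% of all measured genes called higher and 7.48% called lower. HGD, the homogentisate dioxygenase of tyrosine breakdown, was at 10.1 CPM in cytokine-treated cells and 1.78 CPM in vehicle cells, a log2 ratio of 2.50. HGD reached 5 CPM in cytokine-treated cells alone, so it could not have been called lower. FAH, the last enzyme of tyrosine breakdown, was at 66.3 CPM in cytokine-treated cells and 26.6 CPM in vehicle cells, a log2 ratio of 1.32. The third, GSTZ1, had a log2 ratio of 0.48. Glucocorticoids are known to raise TDO2 in liver, and of 4 measured genes of that response 0 were called. Their log2 ratios lay between -0.59 and 0.39, and the most abundant, DUSP1, a phosphatase of MAP kinases, was at 219.8 CPM in cytokine-treated cells and 168 CPM in vehicle cells. The hepatocyte marker ALB had 8 UMIs in all cytokine-treated cells and 6 in all vehicle cells, and APOA1 had 9 and 12.

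KMO and KYNU are also enzymes of macrophages, and myeloid markers were near absent. Of 10 myeloid markers 3 had rows, none was measured, and their levels summed to 4.07 CPM in cytokine-treated cells and 0.546 CPM in vehicle cells, from ITGAM with 152 UMIs against 0, CD68 with 127 UMIs against 27, and LYZ with 4 UMIs against 5. No cell type that should lack the enzymes was present in this material, so the level of free RNA could not be measured.

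For single cells, each was thinned to 15000 UMIs, which left 3033 cytokine-treated and 2586 vehicle cells and left out 130 and 236 shallower ones. TDO2 was the most uneven of the 6 enzymes. At least 1 TDO2 UMI was present in 68.8% of cytokine-treated cells (Clopper-Pearson interval 67.1 to 70.5) and in 4.14% of vehicle cells (3.40 to 4.98), or in 72.0% of cytokine-treated cells and 4.82% of vehicle cells without thinning. In cytokine-treated cells 31.2% held none, where a Poisson spread of the same mean would leave 0.0318%, while the median cell held 3 UMIs, the 90th percentile 23 UMIs and the highest cell 175 UMIs. The 10% of cytokine-treated cells with most TDO2 held 48.2% of its UMIs. In vehicle cells TDO2 was rarer, with up to 18 UMIs in a cell. The 1% of cells with most TDO2 held 9.51% of its UMIs in cytokine-treated cells and 65.3% in vehicle cells.

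The variance of thinned counts over their mean, which is 1 for counting noise alone, was 20.4 for TDO2 in cytokine-treated cells and 7.29 in vehicle cells, and all 200 genes nearest in CPM had lower values in each library. KMO was spread more evenly. A KMO UMI was present in 91.0% of cytokine-treated cells and 12.0% of vehicle cells after thinning, and in 94.2% and 16.5% of cytokine-treated and vehicle cells without it, with a ratio of variance to mean of 2.26 in cytokine-treated cells and 1.12 in vehicle cells. KYNU was present in 51.3% of cytokine-treated cells and 5.38% of vehicle cells after thinning, and in 58.9% and 7.02% of cytokine-treated and vehicle cells without it, with a ratio of 2.09 in cytokine-treated cells and 1.31 in vehicle cells. AFMID, QPRT and KYAT3 had ratios of 1.03, 1.21 and 1.04 in cytokine-treated cells and 1.08, 1.12 and 1.01 in vehicle cells. Of the 200 genes nearest in CPM, 185 had a lower ratio than KMO in cytokine-treated cells and 190 in vehicle cells. The same counts were 194 and 199 for KYNU, 189 and 182 for QPRT, 126 and 168 for AFMID, and 126 and 76 for KYAT3, so QPRT was about as uneven for its level as KMO. For AFMID, QPRT and KYAT3, in that order, the shares of cells after thinning were 7.55%, 31.2% and 12.1% in cytokine-treated cells. In vehicle cells they were 10.9%, 26.0% and 8.31%. These shares depend on the depth, and at 7500 UMIs per cell they were 4.02%, 17.3% and 5.94% in cytokine-treated cells and 6.13%, 13.2% and 5.56% in vehicle cells.

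**Figure D2:**
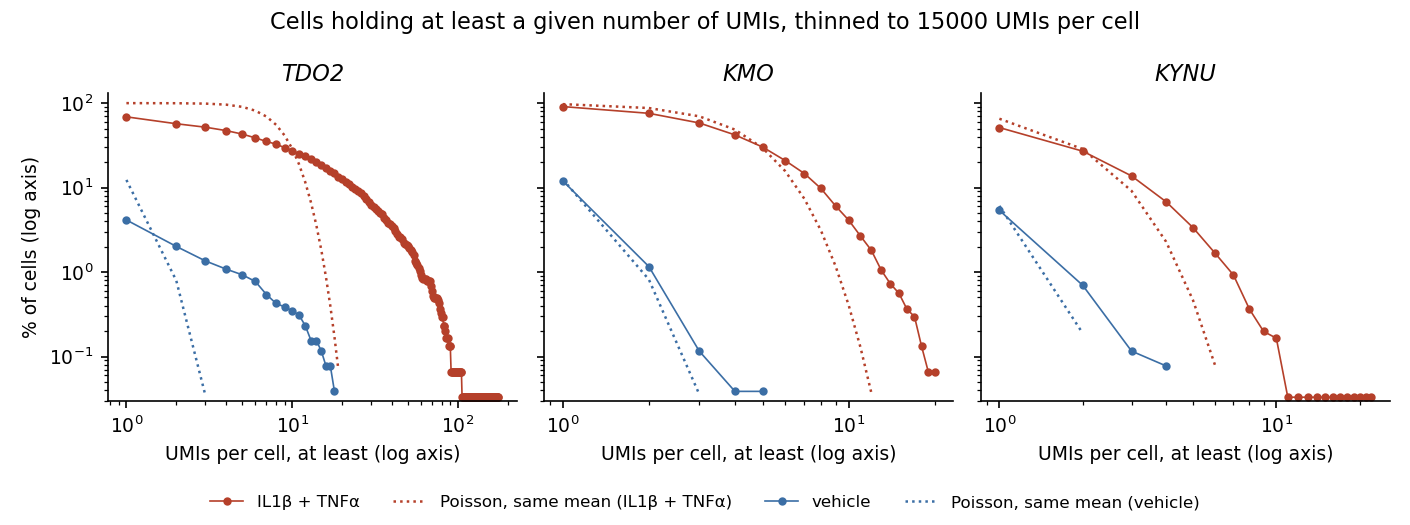
Percentage of cells (log axis) that held at least the number of UMIs on the horizontal axis (log axis), in the IL1β + TNFα library (red) and the vehicle library (blue), for cells thinned to 15000 UMIs, with dotted lines for a Poisson spread of the same mean. TDO2 departs from the Poisson line in both libraries and reaches 175 UMIs in a cytokine-treated cell and 18 UMIs in a vehicle cell, while KMO and KYNU reach 20 and 22 UMIs in cytokine-treated cells.

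Detection of the 3 enzymes together was set against the product of their separate shares. Of 3033 thinned cytokine-treated cells, 976 held UMIs of TDO2, KMO and KYNU together, which is 32.2% (30.5 to 33.9), and the product of the shares was 32.1%. TDO2 and KMO without KYNU were found in 967 cells, KMO and KYNU without TDO2 in 460 cells, and TDO2 and KYNU without KMO in 58 cells, where the product of the shares gives 96.4. KYNU alone was found in 63 cells, where the product gives 43.7. None of the 3 enzymes was found in 66 cytokine-treated cells, or 2.18% (1.69 to 2.76), where the product gives 41.4 cells. None was found in 2070 of 2586 vehicle cells, where the product gives 2065, and all 3 were found in 3 vehicle cells.

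Amounts per cell gave more than detection. Correlations were taken across cells of 1 library on log-normalized counts, so that points share the library, and they are descriptions. Depth was scaled but not held equal. It ran from 11027 to 43121 UMIs per cytokine-treated cell and from 9426 to 38971 UMIs per vehicle cell. In 3163 cytokine-treated cells TDO2 and KMO had a Pearson r of 0.22, KMO and KYNU of 0.11, and TDO2 and KYNU of -0.13. On thinned counts, where depth is equal, the values for these pairs were 0.17, 0.10 and -0.10. KMO thus varied weakly with each of the others, which varied weakly against each other. The remaining 12 pairs lay between -0.04 and 0.09, and all 15 pairs lay between -0.02 and 0.02 in 2822 vehicle cells, where counts are sparse.

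**Figure D3:**
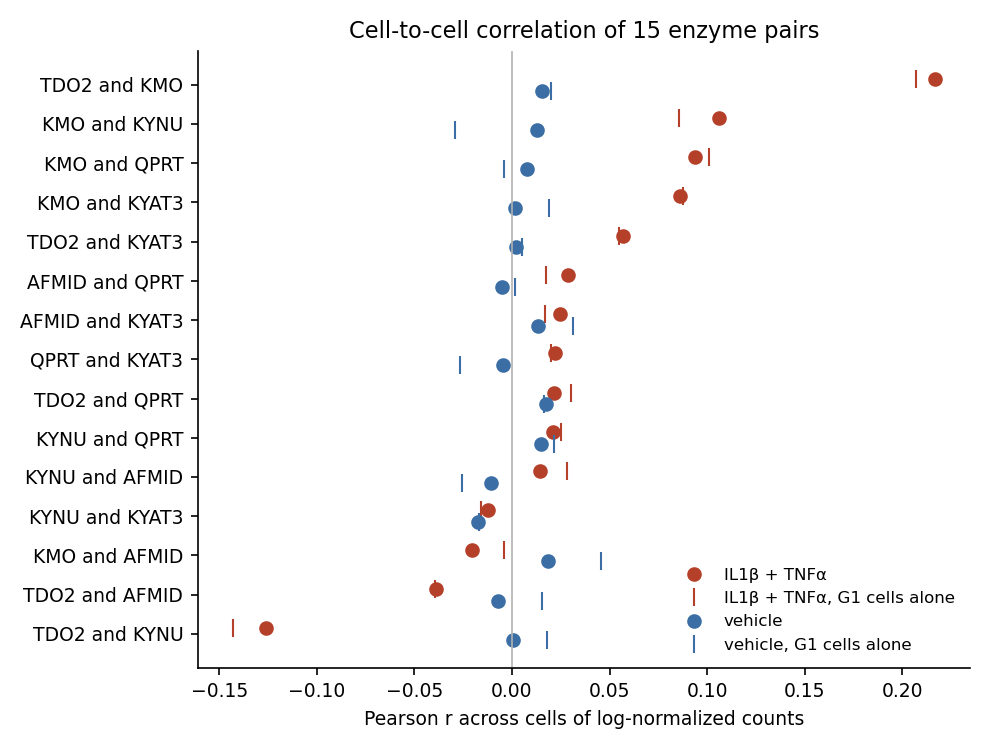
Pearson r across cells for the 15 enzyme pairs in IL1β + TNFα (red) and vehicle (blue) cells, as points for all cells and ticks for G1 cells alone. TDO2 with KMO at 0.22 and TDO2 with KYNU at -0.13 mark the ends of the cytokine-treated range, and the vehicle points stay between -0.02 and 0.02.

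The pair values shifted between the deposited clusters, which were numbered by the authors and each held cells of both libraries. The clusters may have been made with these enzyme genes among others. Differences between clusters in r or in level may therefore be partly built in. Within clusters of cytokine-treated cells, r of TDO2 and KMO was 0.05 in cluster 0, 0.20 in cluster 1, 0.24 in cluster 2, 0.11 in cluster 3, 0.07 in cluster 4 and 0.28 in cluster 5. For TDO2 and KYNU it was between -0.28 and -0.14 in clusters 0, 1, 3 and 5, and was 0.02 in cluster 2 and -0.01 in cluster 4. KMO and KYNU stayed above 0 in all 6 clusters, between 0.04 and 0.15. The value of TDO2 and KMO over all cells, 0.22, was thus above those within clusters 0, 1, 3 and 4 and below those within clusters 2 and 5. Cluster 0, with the lowest value, held 1100 cytokine-treated cells.

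Among cytokine-treated cells, levels by cluster differed for TDO2 and KMO more than for KYNU. TDO2 was at 788 CPM in cluster 0, 685 CPM in cluster 3 and 663 CPM in cluster 5 of cytokine-treated cells, and at 432, 293 and 260 CPM in clusters 2, 4 and 1. KMO was at 325 and 286 CPM in clusters 0 and 3 and between 138 and 178 CPM in the other 4 clusters, so cluster 5 was high for TDO2 and not for KMO. KYNU had a narrow range of 51.7 to 77.8 CPM, with its highest values in clusters 0 and 1. In vehicle cells TDO2 was also highest in cluster 0, at 21.7 CPM, and was between 6.25 and 9.22 CPM elsewhere. There KMO lay between 5.96 and 13.6 CPM and KYNU between 2.41 and 6.28 CPM. The log2 ratio of the libraries within a cluster ran between 5.18 and 6.24 for TDO2, 3.72 and 4.63 for KMO, and 3.33 and 4.93 for KYNU. AFMID had log2 ratios between -1.38 and 0.12, and was past 2-fold in clusters 0 and 5, while QPRT lay between -0.06 and 0.57 and KYAT3 between -0.20 and 0.69. Cluster 2 held cells in S and G2/M in both libraries, with 89.8% of its cytokine-treated cells and 73.0% of its vehicle cells in S.

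To see the size of the relation in levels, cytokine-treated cells were sorted by their thinned TDO2 count. KMO was at 208 CPM in 946 cells without a TDO2 UMI (201 to 216), 219 CPM in 514 cells with 1 to 2, 235 CPM in 741 cells with 3 to 9, 289 CPM in 641 cells with 10 to 29, and 313 CPM in 191 cells with 30 to 175 (293 to 334). KYNU ran the other way over the same ranges, at 79.1 (74.6 to 83.9), 74.2, 73.5, 60.0 and 43.3 CPM (36.0 to 51.6). QPRT was nearly level, at 27.6, 26.5, 27.4, 28.6 and 30.7 CPM, with overlapping intervals at the ends. Cells without a TDO2 UMI thus had KMO and KYNU far above the vehicle levels of 9.32 and 4.08 CPM.

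NFKBIA, the NF-κB inhibitor gene that NF-κB itself induces, showed no such gradient, at 1110 CPM in cells without TDO2 and 1125 CPM in those with 30 to 175 UMIs. S100A9, a secreted inflammatory protein gene, was at 3968 CPM without TDO2 and 5934 CPM at its highest range. Of the tyrosine breakdown genes, FAH was at 55.4 CPM in the lowest range and 93.5 CPM in the highest, and a UMI of HGD was present in 8.99% of cells of the lowest range and 20.9% of the highest. The share of G1 cells was 88.2% in the lowest range and 93.2% in the highest, and the median UMI count before thinning was 21079 and 24149. The part of phase and depth in these gradients was not tested beyond the thinning, and the gradients were not read within G1 cells alone. Only correlations were, with r in cytokine-treated G1 cells of 0.21 for TDO2 and KMO and -0.14 for TDO2 and KYNU.

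**Figure D4:**
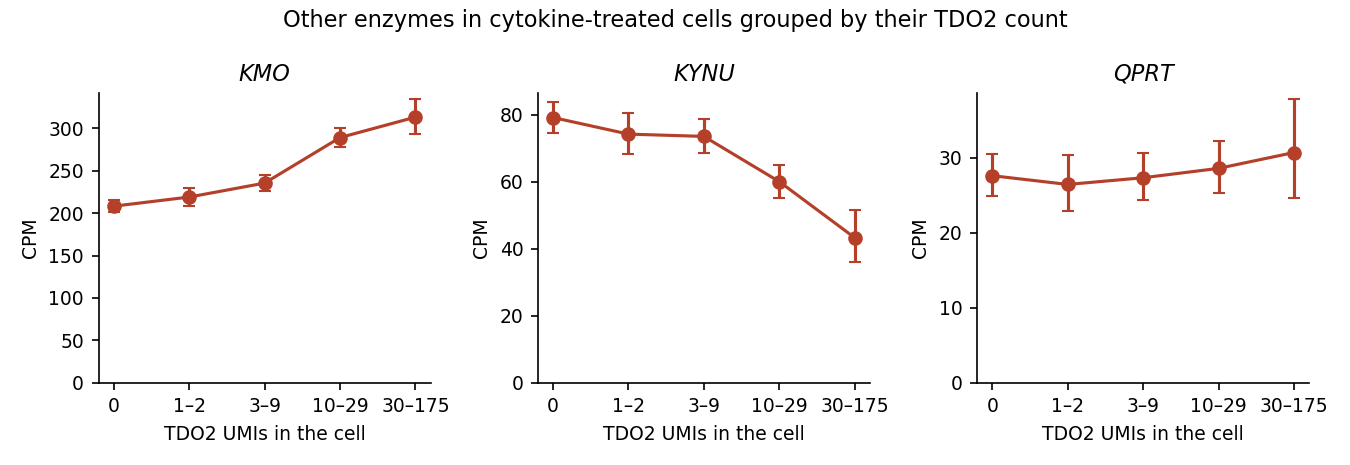
Level of KMO, KYNU and QPRT in CPM in thinned cytokine-treated cells grouped by their number of TDO2 UMIs, with exact Poisson 95% intervals and axes that start at 0. KMO goes from 208 to 313 CPM and KYNU from 79.1 to 43.3 CPM across the TDO2 ranges, while QPRT stays between 26.5 and 30.7 CPM.

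In vehicle cells 35 cells with 3 to 18 TDO2 UMIs held 73.8% of the TDO2 UMIs of that library. Their KMO was at 13.3 CPM (5.36 to 27.5) beside 8.74 CPM in the 2479 cells without TDO2 (7.82 to 9.74), and KYNU was at 3.81 CPM beside 4.14 CPM, from 7 and 2 UMIs, too few at this depth to detect a difference. NFKBIA was at 87.6 CPM in these 35 cells and 78.4 CPM in cells without TDO2, with overlapping intervals. TFF1, a secreted trefoil peptide gene of luminal cells, was at 263 CPM (221 to 311) in the 35 cells and 55.2 CPM (52.8 to 57.6) in cells without TDO2, and was picked out after its values were seen.

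The genes most like each enzyme were sought among those at 20 CPM or more, 4382 genes in cytokine-treated cells. For TDO2 the highest r belonged to XBP1, the transcription factor of secretory cells and the unfolded protein response, at 0.28, followed by SNPH at 0.26, CKB at 0.26, PRDX2, REEP5, CRABP2, ID2 and FGFR4, the last at 0.24. The lowest were TMSB4X, an actin-binding thymosin, at -0.35, RPLP1 at -0.26, ARHGAP29 and IGFBP5 at -0.23, FLNA, ZFP36L1, B2M and RPS27, the last at -0.20. FLNA, like TMSB4X, codes for a protein that binds actin, and FGFR4 for a growth factor receptor. Within G1 cells alone XBP1 was at 0.29 and TMSB4X at -0.35.

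KMO had the highest positive r of the 6 enzymes. Among its highest r were those of KRT19, a luminal keratin, at 0.40, MAGED2 at 0.38, the endoplasmic reticulum folding enzymes PPIB at 0.38 and PDIA3 at 0.36, PSMA6, CREB3L4 and ATP6AP1, the last at 0.35. All 8 of the lowest were ribosomal protein genes, from RPLP1 at -0.31 to RPS21 at -0.24. KMO also went against the share of mitochondrial UMIs, with r of -0.21, and with the UMIs of the cell, with r of 0.16, and the part of either in the gene values was not tested. For TDO2 the same values were -0.07 and 0.18, and for KYNU 0.0066 and -0.0038.

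KYNU kept other company. Its highest r belonged to SOD2, the mitochondrial superoxide dismutase that NF-κB induces, at 0.25, the collagenase MMP13 at 0.23, CSTB at 0.22, S100A8 at 0.21, CD24, SLPI, the acute phase gene SAA1 and FTH1, the last at 0.20. Its lowest were DBI at -0.20, CNN3 at -0.20, FGFR4 at -0.19, KCNMA1, MIF, UQCR10, XBP1 at -0.17 and CCND1 at -0.17. XBP1 and FGFR4 thus stood among the highest for TDO2 and among the lowest for KYNU.

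QPRT, measured well enough in each library to be read this way, had weaker values. In cytokine-treated cells KRT8 was highest at 0.15, with TSPAN1, KRT19, PPIB, ANXA2, KRT18 and FDPS among the next, and in vehicle cells KRT19 at 0.14, MYL6, ANXA2, S100A11, KRT7, PSMB1 and CYBA were among the highest. KRT19 and ANXA2 were among the highest in each library. In vehicle cells their values were 0.14 and 0.13 over all cells and 0.09 and 0.09 in G1 cells alone. CYBA went the other way, at 0.12 and 0.14. In cytokine-treated G1 cells KRT19 was at 0.15 and ANXA2 at 0.14. The lowest 8 were all ribosomal protein genes in cytokine-treated cells, with RPL41 at -0.15, and 7 of 8 were in vehicle cells.

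The lists of most similar genes overlapped unequally. Among the 50 highest for each enzyme in cytokine-treated cells, TDO2 and KMO shared 21, which is 42.0% of each list. KMO and QPRT shared 26, TDO2 and QPRT 17, KMO and KYNU 5, and KYNU and QPRT 1. TDO2 and KYNU shared only KMO itself. How many genes unrelated lists would share was not worked out. The 5 shared by KMO and KYNU were ASS1, AZGP1, CSTB, S100A8 and S100A9. Over 4380 genes the r with TDO2 and the r with KMO had a correlation of 0.77, the r with TDO2 and the r with KYNU one of -0.42, and the r with KMO and the r with KYNU one of -0.05. These are values across genes of the same cells, and genes are not independent.

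Among the 4382 genes compared with each enzyme, 406 were above 0.1 for TDO2 and 57 for KYNU. Below -0.1 were 119 for TDO2 and 83 for KYNU. Of 4380 genes, 6 ran with both TDO2 and KYNU past 0.1. Genes that ran with TDO2 and against KYNU, past 0.1 in either direction, numbered 37, and 12 genes ran against TDO2 and with KYNU. Among the 12 were SOD2 at -0.11 with TDO2 and 0.25 with KYNU, the chemokine CCL2 at -0.17 and 0.17, SERPINA3 at -0.11 and 0.15, B2M at -0.20 and 0.11, and TMSB4X at -0.35 and 0.11. S100A8 and S100A9 ran with each of the 3 enzymes, at 0.13 and 0.15 for TDO2, 0.30 and 0.33 for KMO, and 0.21 and 0.18 for KYNU. NFKBIA was at 0.03 with TDO2, 0.26 with KMO and 0.02 with KYNU.

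**Figure D5:**
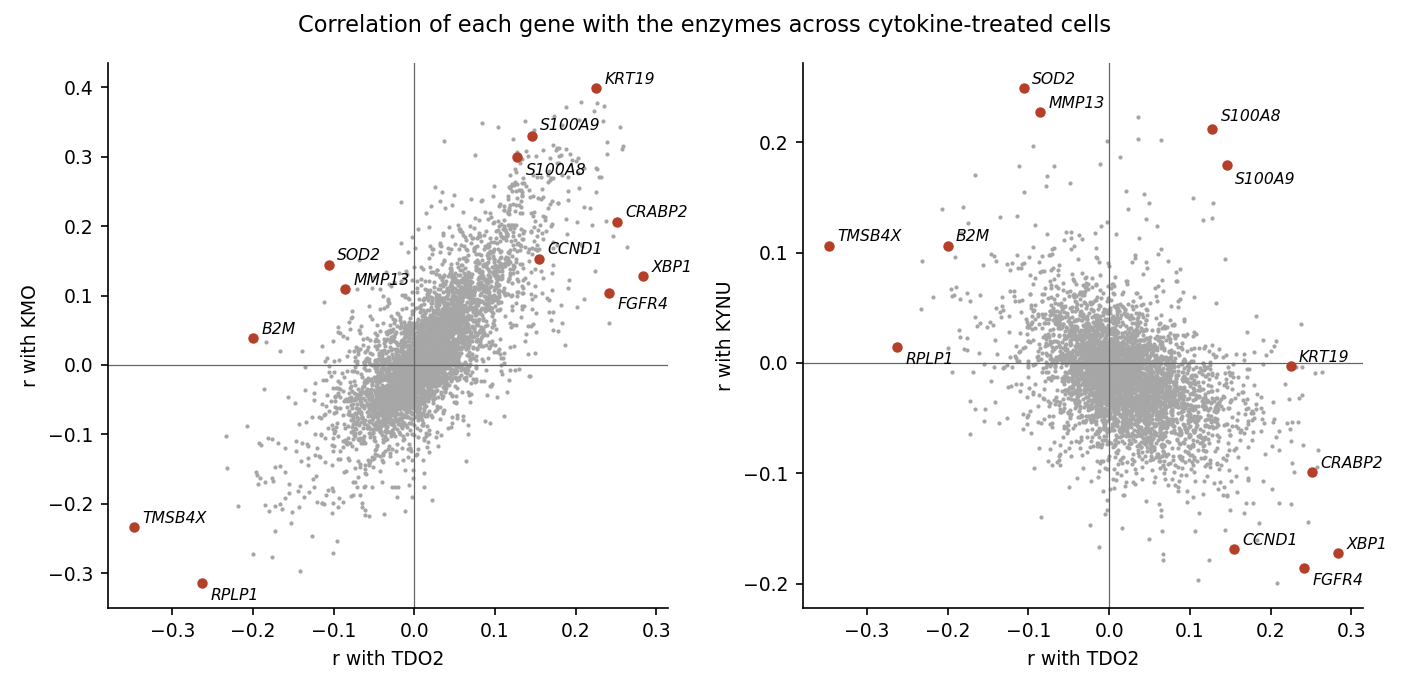
Each point is a gene at 20 CPM or more in the IL1β + TNFα library, placed by its Pearson r with TDO2 across cells (horizontal) and its r with KMO (left panel) or KYNU (right panel), with genes named in the text in red. The cloud rises in the left panel, where the values had a correlation of 0.77 over 4380 genes, and falls in the right panel, where it was -0.42.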

How the data were processed

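UMI counts came from Cell Ranger 3.1.0, run by the authors on GRCh38, and were deposited raw, with the percent of mitochondrial UMIs, a phase call and a cluster number per cell from Seurat 4.0.4. The study removed cells that reached 50000 UMIs, 5000 genes or 15% mitochondrial UMIs or held at most 3000 genes, which can remove dividing cells unequally. The labels give 24 hours of treatment, while a figure description of the study gives a longer time. How clusters were made was not stated for the deposited numbers.

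Counts were summed per library and divided by its total (CPM), with exact Poisson intervals, exact conditional binomial intervals for log2 ratios and Clopper-Pearson intervals for shares, all at 95%. Cells are not replicates of a culture, so no p-value was computed. Correlations used the natural log of 1 plus 10000 times the fraction of a cell's counts. Doublets were not removed and no caller was run. Members, lists and tests were chosen with earlier results of these data known, and lists were of pathway, cofactor, liver, myeloid and epithelial genes. Named genes were the 6 enzymes, list genes past 2-fold or otherwise the most abundant of a list, nearest neighbours, and the 8 highest and 8 lowest correlations of enzymes at 20 CPM or more. Alternatives were TMM (edgeR 4.0.16), DESeq2 1.42.0 size factors, library totals that leave out ribosomal protein and mitochondrial genes, per-cell means, G1 cells alone, other limits on CPM, rank correlation, other thinning, and cells without the 5% deepest. The interval was tried on simulated Poisson counts, which hold no spread between cells or cultures. The correlation with the Poisson variance taken out was tried on simulated cells with higher mean counts than KYNU, AFMID, QPRT and KYAT3 had here. Neither trial shows how they behave under the real spread or at those low counts. IDO2 and HAAO are not analysed here. Some genes that met the rule for named genes are not reported here.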

Additional observations from a re-analysis of the deposited data

How the results depend on the processing

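In 7 alternatives for each of the 6 log2 ratios, TDO2, KMO and KYNU stayed at least 2-fold higher and AFMID, QPRT and KYAT3 within 2-fold, with no change of sign. Ranges were 5.63 to 6.11 for TDO2, 4.52 to 4.90 for KMO, 3.89 to 4.29 for KYNU, -0.96 to -0.49 for AFMID, 0.38 to 0.64 for QPRT and 0.32 to 0.57 for KYAT3. TMM factors added 0.18 and median-of-ratios size factors 0.19 to every log2 ratio, which gave TDO2 6.10 and 6.11, KMO 4.88 and 4.90, and QPRT 0.63 and 0.64, and KYAT3 0.57 under size factors. G1 cells alone gave TDO2 5.63, KMO 4.52, KYNU 3.89 and AFMID -0.96. Leaving out the 8 barcodes found in both libraries, an alternative chosen after seeing the data, kept each ratio within its interval. The counts of called genes were 400 higher and 399 lower in G1 cells, 1088 higher and 1496 lower with no minimum beyond 1 UMI, and 221 higher and 336 lower at a minimum of 20 CPM. For KMO and KYNU, r was 0.18 on thinned counts with the Poisson variance taken out. Thinned to 7500 in place of 15000 UMIs, the share of cells with a UMI was 60.9% for TDO2, 75.5% for KMO and 34.6% for KYNU in cytokine-treated cells, and 2.73%, 5.92% and 3.01% in vehicle cells. The cause of these shifts was not tested, except that scaling adds the same value to every gene. No paired analysis was possible because each condition has 1 library.

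With 1 culture per condition, the spread between cultures is unknown, and intervals over summed UMIs leave out the spread between cells as well. For AFMID and KYAT3, with 368 and 602 UMIs in all cytokine-treated cells and 496 and 390 in all vehicle cells, correlations across cells and values in G2/M were limited by depth.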
